A study of Mus musculus with 24 samples.

Results

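Fc gamma receptors bind the constant part of IgG antibodies, and mice carry 4 of the classical kind. The genes described here are these 4 receptors, Fcgr1, Fcgr2b, Fcgr3 and Fcgr4, with Fcer1g, which encodes the adaptor chain of the activating receptors. They were chosen by gene symbol, and all 5 of 5 were found among the 20636 genes of each TPM table and among the 18721 (3 months) and 19210 (17 months) genes of the RPKM tables. Microglia, the resident macrophages of the brain, came from C57BL/6J mice that were wild type (WT), heterozygous (HET) or homozygous (HOM) for a knockout of 3110043O21Rik, the mouse counterpart of C9orf72. Each genotype was sampled at 3 and at 17 months, which gave 6 groups of 4 animals and 24 bulk RNA-seq libraries. All groups shared the isolation, in which brains without meninges were dissociated with papain, cleared of myelin and enriched for CD11b-positive cells with magnetic beads. CD11b is also carried by neutrophils, monocytes and border macrophages, so the beads do not select microglia alone. The labels do not say how the knockout allele was made or whether it is absent from microglia alone. No label says that an animal of one group is related to an animal of another, and the spread given below is the spread between the 4 animals of a group.

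As background, an immune complex that clusters activating Fc gamma receptors leads Src-family kinases to phosphorylate the ITAM of the Fcer1g chain, which recruits Syk and starts phagocytosis, the oxidative burst and cytokine release. Fcgr2b is the inhibitory member: its own cytoplasmic ITIM recruits the phosphatase SHIP-1, the product of Inpp5d, and dampens signals from activating receptors bound to the same complex. In microglia these receptors take part in the uptake of antibody-coated material, and the balance between activating and inhibitory receptors sets the threshold of the response.

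Fcgr2b (-), Fcgr4 (+), Fcgr3 (-) and Fcer1g (-) lie on mouse chromosome 1 within 276 kb, with strand in parentheses. In GENCODE vM21 on GRCm38, Fcgr2b spans chr1:170958617-170976547, Fcgr4 chr1:171018920-171029761, Fcgr3 chr1:171051174-171064935 and Fcer1g chr1:171229572-171234365. Fcgr1 stands alone at chr3:96282909-96293969 on the minus strand. The stretch of chromosome 1 holds 11 protein-coding genes, and all 11 are in the TPM tables.

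The coding sequences that carry the activating and the inhibitory motif are shown first, because they separate the roles of the 5 genes. They were read from the GENCODE vM21 transcripts, 5′ to 3′, and capitals mark the codons that define the motif. In the Fcer1g ITAM (coding bases 193 to 237) the capitals are the tyrosine codons and the leucine codon that follows each. In the Fcgr2b ITIM (coding bases 949 to 966) they are the codons for the leading isoleucine, the tyrosine and the closing leucine.

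Fcer1g ITAM: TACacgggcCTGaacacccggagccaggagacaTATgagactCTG

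Fcgr2b ITIM: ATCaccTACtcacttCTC

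A search of the 5 reading frames for the ITAM codon pattern found it in Fcer1g once and in none of the 4 receptors. The shorter ITIM pattern matched at the site shown in Fcgr2b, 3 times in Fcgr1, once in Fcgr4, once in Fcer1g and 0 times in Fcgr3, so a match to it names no motif by itself. Fcgr2b and Fcgr3 are close relatives, with 83.7% identical bases over 787 aligned coding bases, against 58.7% to 63.3% for the other pairs of receptors. The next 2 sequences show why reads may not always tell this pair apart: coding bases 266 to 418 of Fcgr2b and 251 to 403 of Fcgr3 differ at 2 of 153 bases, given in capitals, and a run of 129 bases between them is identical.

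Fcgr2b: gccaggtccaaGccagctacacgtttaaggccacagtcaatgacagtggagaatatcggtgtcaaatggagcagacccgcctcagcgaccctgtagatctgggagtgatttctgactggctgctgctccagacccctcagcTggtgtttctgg

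Fcgr3: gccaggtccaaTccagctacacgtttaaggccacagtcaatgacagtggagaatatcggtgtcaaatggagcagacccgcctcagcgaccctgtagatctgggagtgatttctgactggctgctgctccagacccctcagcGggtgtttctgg

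Of the 1273 stretches of 75 bases in the Fcgr3 transcript, 94 (7.38%) also occur in Fcgr2b, and 75 bases is the labelled read length. Those 94 also stand among the 3470 stretches of Fcgr2b, of which 246 (7.09%) recur in another gene's transcript. Fcgr1, Fcgr4 and Fcer1g share 0 such stretches with any other gene. How the authors' counting placed reads from the shared run is not given in the sources used here, so the split between Fcgr2b and Fcgr3 carries that uncertainty.

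Libraries held 21.8 to 33.8 M alignments at 3 months and 16.7 to 46.4 M at 17 months, with more in HOM (30.6 to 33.8 M and 40.7 to 46.4 M) than in WT (21.8 to 28.4 M and 16.7 to 35.7 M). The labelled RNA input also differed between libraries and groups. It could not be matched to single columns, and its part in the results was not tested. The targeted gene had 20.4 to 25.6 TPM (transcripts per M transcripts, a level per transcript length) in WT at 3 months, 7.37 to 11.4 in HET and 0.0491 to 0.265 in HOM. At 17 months the ranges were 13.2 to 16.7, 5.45 to 8.95 and 0.0148 to 0.0484 TPM, in the order of the labels at both ages. Microglial markers were present throughout: all 10 of 10 microglial markers were detected in every group, with a summed level of 29031 to 35129 TPM at 3 months and 17258 to 25711 at 17 months. Libraries also carried neutrophil markers (14 of 15 passed the filter on low values at each age) and monocyte markers (11 of 12). The summed neutrophil level was 770 to 2454 TPM in WT, 1578 to 5087 in HET and 1833 to 4792 in HOM at 3 months, and 420 to 2597, 565 to 11513 and 2314 to 6212 at 17 months. The summed monocyte level was 145 to 214 TPM in WT, 199 to 271 in HET and 187 to 421 in HOM at 3 months, and 125 to 242, 153 to 483 and 321 to 1223 at 17 months. Border-associated macrophage markers summed to 484 to 1349 TPM over all libraries, B cell markers to 44.5 to 88.0, T and NK cell markers to 21.4 to 65.7, and mast cell and basophil markers to 0.317 to 36.1. Endothelial markers summed to 140 to 421 TPM in WT, 94.2 to 556 in HET and 77.5 to 122 in HOM at 3 months. At 17 months these sums were 261 to 337, 161 to 241 and 379 to 504 TPM. HOM thus lay below WT at 3 months and above WT at 17 months. Of the marker lists, only those of endothelial cells and microglia had genes called at 17 months. For endothelial cells 2 of 8 were higher in HOM than in WT and 7 of 8 higher than in HET. For microglia 1 of 10, Gpr34, was lower in HOM in both. At 3 months and between HET and WT 0 were called. By Y-linked transcripts the males numbered 1 WT, 4 HET and 2 HOM of 4 each at 3 months, and 1, 0 and 3 of 4 each at 17 months, so genotype and sex were unevenly mixed. Age and sex coincided in HET, with 4 males at 3 months and 4 females at 17 months. Ages stand in separate tables, so levels at 3 and 17 months are set side by side without a test.

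All 5 genes were expressed in every animal, and their order by TPM was the same in all 24: Fcer1g, Fcgr3, Fcgr2b, Fcgr1 and Fcgr4. The mean over the 12 animals of 3 months was 2157 TPM for Fcer1g, 1482 for Fcgr3, 478 for Fcgr2b, 321 for Fcgr1 and 33.5 for Fcgr4. The corresponding means at 17 months were 2475, 1400, 429, 277 and 52.4 TPM. At each age the ranges of neighbours in this order did not overlap across the 12 animals. Fcer1g stood at rank 46 of the 20636 genes at 3 months and 40 at 17 months, and Fcgr3 at 74 and 97, whereas Fcgr4 stood at 3835 and 2142. In RPKM (reads per kilobase and M alignments) the top pair was less clear: mean Fcgr3 was 738 RPKM and mean Fcer1g 627 RPKM in WT at 3 months, and 917 and 957 RPKM in WT at 17 months. The TPM of Fcer1g was on average 3.13 times its RPKM at 3 months, that of Fcgr3 1.98 times and that of the median gene 2.24 times, so the order of Fcer1g and Fcgr3 depends on the table. Fcgr2b and Fcgr1 kept separate ranges in RPKM at 3 months and overlapped at 17 months (179 to 251 and 132 to 185 RPKM over all animals).

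**Figure D1:**
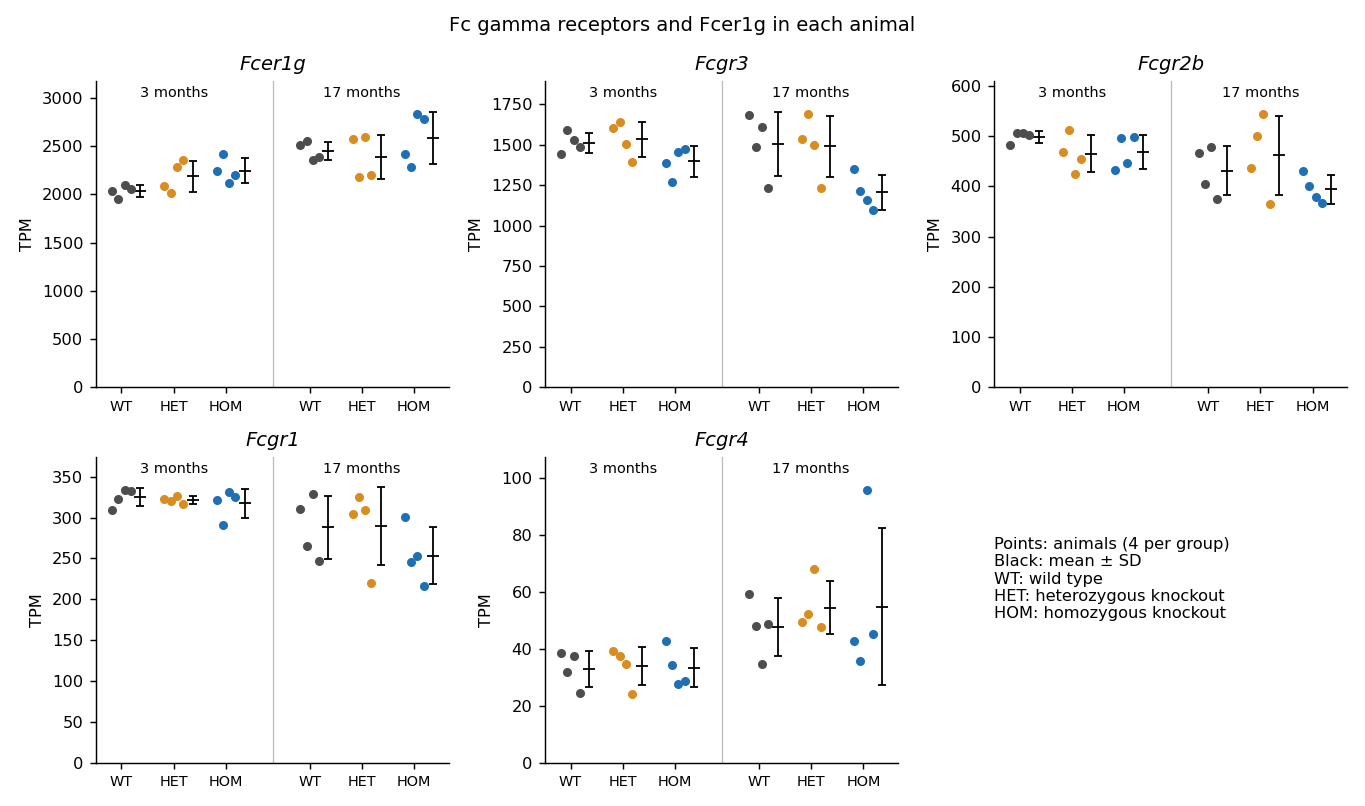
TPM of Fcer1g, Fcgr3, Fcgr2b, Fcgr1 and Fcgr4 (vertical axes, from 0) in WT, HET and HOM animals at 3 and 17 months; points are animals, black bars the mean ± SD of 4. The HOM points of Fcgr3 at 17 months sit between 1097 and 1352 TPM, beside WT points between 1231 and 1686, and 1 HOM animal stands at 96.1 TPM for Fcgr4.

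None of the 5 genes passed the test between genotypes at either age (limma on log2(TPM + 1), Benjamini-Hochberg adjustment over all genes kept, adjusted p under 0.05). The share of all genes called was also small, at 0.0604% for HOM against WT, 0.0432% for HET against WT and 0.0259% for HOM against HET at 3 months. At 17 months these shares were 0.712%, 0.237% and 1.86%. At an unadjusted p under 0.05, 1 of the 5 genes (Fcer1g) differed between HOM and WT at 3 months, where 19.7% of all genes did, and 1 of 5 (Fcgr3) at 17 months, where 18.6% did. Fcgr3 was also the single gene of the 5 past that limit for HOM against HET at 17 months, beside 13% of all genes, and the other 3 comparisons had 0 of 5, beside 21.6% (HET against WT) and 8.55% (HOM against HET) at 3 months and 9.24% (HET against WT) at 17 months. No more than 1 of the 5 thus passed the unadjusted limit in any comparison, a share near that of all genes. By ranges, the TPM of the 4 and 4 animals did not overlap for 1 of 5 (Fcer1g) in HOM against WT at 3 months, beside 16.8% of all genes, and for 0 of 5 elsewhere. The shares of all genes there were 11.3% (HET against WT) and 4.35% (HOM against HET) at 3 months, and 13.5% (HOM against WT), 4.54% (HET against WT) and 7.85% (HOM against HET) at 17 months. Leaving out any single animal called 0 of the 5 in each comparison. Centring each library on its median or weighting libraries by quality did call Fcgr3 in some comparisons, and weighting also called Fcgr2b, as given below.

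**Figure D2:**
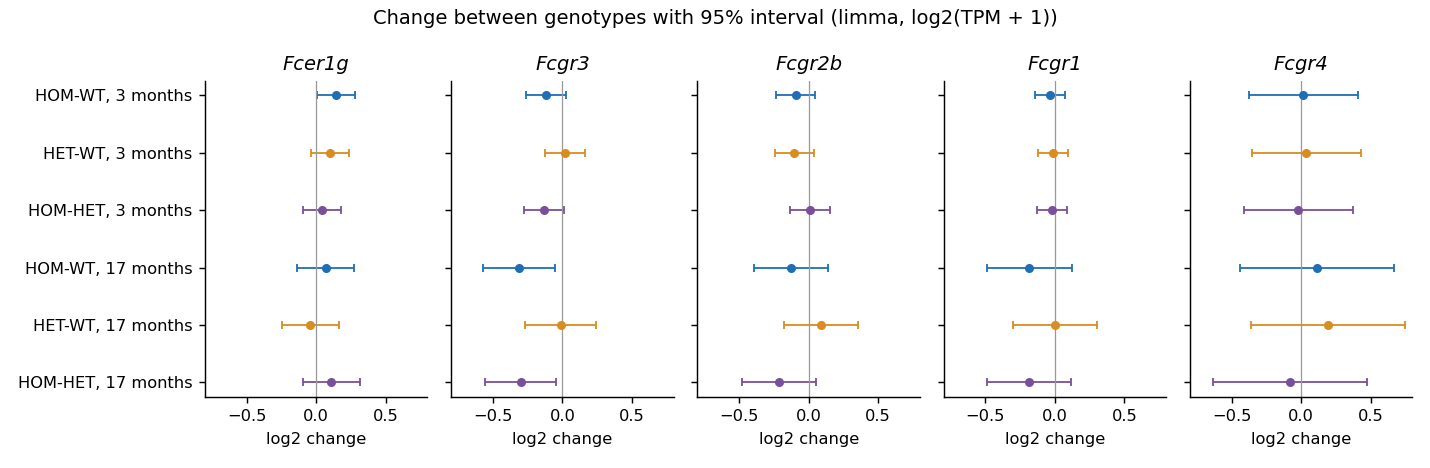
Change between genotypes for each gene in the 3 comparisons of each age (horizontal axis, log2 change on the log2(TPM + 1) scale; points are limma estimates, bars the 95% confidence interval). The intervals of Fcgr3 for HOM against WT and HOM against HET at 17 months, and of Fcer1g for HOM against WT at 3 months, exclude 0 before adjustment, and those of Fcgr4 are the widest.

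Fcgr3 encodes the low-affinity activating receptor that depends on Fcer1g for its signal, and it was the most abundant receptor. At 17 months it stood at 1686, 1487, 1611 and 1231 TPM in the 4 WT animals, at 1536, 1692, 1498 and 1235 in HET, and at 1352, 1212, 1161 and 1097 in HOM. HOM animals were thus the low end of the age, and 1 HOM animal lay above the lowest WT and the lowest HET animal. The mean was 1504 ± 199 TPM in WT (SD, n = 4), 1490 ± 190 in HET and 1205 ± 108 in HOM. The log2 change of Fcgr3 in HOM against WT was -0.31 (SE 0.12, limma adjusted p = 0.18, unadjusted p = 0.0210), which is 19.5% lower on the log2(TPM + 1) scale. Against HET it was -0.30 (SE 0.12, limma adjusted p = 0.296, unadjusted p = 0.0256).

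With each library centred on its median gene, the 17-month change of Fcgr3 was -0.39 against WT (limma adjusted p = 0.0225) and -0.38 against HET (adjusted p = 0.0238). Library quality weights gave -0.30 (adjusted p = 0.0379) and -0.33 (adjusted p = 0.0298), while calling 1858 and 1136 genes in all, against 84 and 219 without weights. Over the alternatives that kept all animals the adjusted p of the comparison with WT ran from 0.0225 to 0.237, and with 1 animal left out it ran from 0.101 to 0.391. The log2 value was negative in each of them. In the RPKM table Fcgr3 was 977, 933, 963 and 794 in WT and 800, 747, 712 and 750 in HOM, and the highest HOM animal again lay above the lowest WT animal. In HET it was 853 to 971 RPKM, above all HOM animals, whereas HET and HOM overlapped in TPM. The share of all genes without overlap in RPKM was not computed. Both sexes showed the same side at 17 months: the HOM female, at 1097 TPM, lay below the 3 WT females (1231 to 1686), and the 3 HOM males (1161 to 1352) lay below the WT male (1611). Summed monocyte, neutrophil and endothelial markers were higher in HOM than in WT at this age, as given above. The microglial marker sum was 17258 to 24053 TPM in HOM and 21462 to 25188 in WT. The part of these cells in the result was not tested. In bulk RNA, fewer cells of a type and less RNA per cell cannot be told apart.

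At 3 months Fcgr3 stood at 1445, 1590, 1532 and 1489 TPM in WT, at 1602, 1639, 1502 and 1395 in HET, and at 1390, 1267, 1457 and 1476 in HOM. The HOM values overlapped those of WT, and the HET values spanned those of WT. The log2 change in HOM was -0.12 against WT (SE 0.066, limma adjusted p = 0.342) and -0.13 against HET (SE 0.066, adjusted p = 0.618). Quality weights called the latter, at -0.15 (adjusted p = 0.0210), with 3074 genes called in all against 3 without weights. Median centring took the change against WT to -0.0046 and quantile normalization to -0.27. HET and WT differed by log2 0.02 at 3 months and -0.01 at 17 months, with 95% intervals from -0.13 to 0.16 and from -0.27 to 0.25.

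Fcgr1 encodes the high-affinity activating receptor. Its TPM varied least of the 5 at 3 months, whereas in RPKM Fcgr2b varied least (CV over 12 animals 3.50%, against 6.52% for Fcgr1). Its means were 325 ± 11.2 TPM in WT, 321 ± 4.43 in HET and 317 ± 17.8 in HOM (SD, n = 4). Its spread within genotypes, an SD of 0.06 on the log2 scale, was undercut by 7.41% of the 567 genes of like level. At 17 months that SD was 0.22, larger than in 74.0% of 572 genes of like level. There Fcgr1 stood at 311, 265, 329 and 247 TPM in WT, 304, 326, 309 and 220 in HET, and 300.3, 245, 253 and 216 in HOM, and the 3 groups overlapped. The log2 change in HOM was -0.04 against WT at 3 months (95% interval -0.14 to 0.07, limma adjusted p = 0.723) and -0.18 at 17 months (-0.49 to 0.12, adjusted p = 0.539), where a sex term made it -0.32. Centring each library on its median turned the 3-month value to 0.08, since the median gene stood at log2 -0.10 in that comparison.

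Fcgr4 encodes a further activating receptor that signals through Fcer1g, and it was the least abundant. WT animals had 38.5, 31.9, 37.4 and 24.5 TPM at 3 months and 59.5, 48.0, 34.9 and 48.8 at 17 months. HET animals had 39.3, 37.6, 34.8 and 24.3 TPM at 3 months and 49.7, 52.2, 68.2 and 47.8 at 17 months. HOM animals had 42.9, 34.3, 27.8 and 28.7 TPM at 3 months and 42.7, 35.6, 96.1 and 45.4 at 17 months. The genotypes overlapped at both ages, and the 17-month values lay mostly above the 3-month values in each genotype. Fcgr4 means at 17 months were 1.45, 1.60 and 1.64 times those at 3 months in WT, HET and HOM, while the other 4 genes stood at 0.799 to 1.20 times. The HET ratios set 4 females of 17 months beside 4 males of 3 months, so age and sex cannot be told apart in them. In RPKM the ratios were higher, at 1.83, 1.98 and 2.03 for Fcgr4, 1.33 to 1.53 for Fcer1g, 1.07 to 1.24 for Fcgr3, 1.03 to 1.19 for Fcgr2b and 0.979 to 1.11 for Fcgr1, so the direction for Fcgr1, Fcgr2b and Fcgr3 depends on the table. Its log2 change in HOM against WT was 0.02 at 3 months (95% interval -0.38 to 0.41, limma adjusted p = 0.971) and 0.11 at 17 months (-0.44 to 0.67, adjusted p = 0.870).

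The spread of Fcgr4 was wide for its level: its within-genotype SD on the log2 scale, 0.29 at 3 months and 0.42 at 17 months, was larger than in 94.4% and 96.7% of genes of like level. Read numbers estimated from RPKM, transcript length and alignments ran from 321 to 2832 per library for Fcgr4 and from 7229 upward for the other 4 genes. The HOM animal at 96.1 TPM, HOM-7899, also had the highest summed monocyte markers, 1223 TPM against 321 to 425 in the other 3 HOM animals. Its neutrophil marker sum of 3555 TPM lay inside the HOM range of 2314 to 6212. Without this animal the 17-month change of Fcgr4 was -0.19 against WT and -0.39 against HET (unadjusted p = 0.0463, limma adjusted p = 0.603). The part of monocytes in the Fcgr4 level of this library was not tested. The 2 HET libraries with the highest neutrophil sums, 11190 and 11513 TPM, had the lowest Fcgr4 of their group, 49.7 and 47.8 TPM. The latter, HET-7796, also had the lowest TPM column sum of all libraries, 78.9% of a full TPM total. The part of neutrophils in the Fcgr4 level was not tested.

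Fcgr4 values are also given by sex, because this gene stood out when every member was compared by sex. At 3 months the HOM females (27.8 and 28.7 TPM) lay below the 3 WT females (31.9 to 38.5), and the HOM males (34.3 and 42.9) lay above the WT male (24.5). At 17 months the HOM female (45.4) lay below the 3 WT females (48.0 to 59.5), and the 3 HOM males (35.6 to 96.1) lay above the WT male (34.9), by a mean of 4.29 TPM without HOM-7899. Each age thus had a single WT male, which was the lowest WT animal, and the opposite directions were not tested. With females alone the 3-month change of Fcgr4 was -0.33 (limma unadjusted p = 0.00875, adjusted p = 0.175), the reverse of the value over both sexes.

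**Figure D3:**
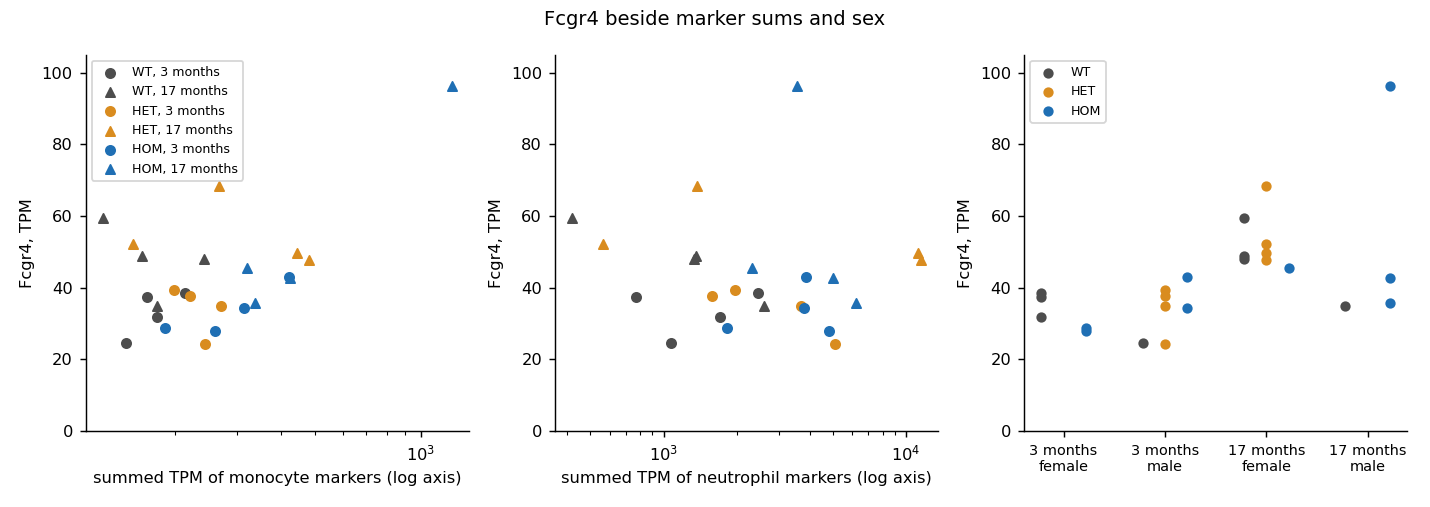
Fcgr4 in TPM (vertical axes, from 0) against the summed TPM of monocyte markers (left) and of neutrophil markers (middle), both on log axes, and by age and sex (right); each point is an animal, coloured by genotype. The HOM animal at 96.1 TPM is alone at the right of the monocyte axis, and the WT male is the lowest WT point at each age.

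Fcgr2b encodes the inhibitory receptor. At 3 months it stood at 482, 506, 506 and 502 TPM in WT, at 469, 513, 424 and 456 in HET, and at 432, 497, 446 and 498 in HOM. WT animals were close together, and both knockout groups reached lower values and overlapped WT. At 17 months the values were 467, 406, 479 and 375 TPM in WT, 437, 499.9, 545 and 365 in HET, and 432, 401, 378 and 367 in HOM. The group means at 17 months were 432 ± 49.5, 462 ± 78.1 and 394 ± 28.6 TPM (SD, n = 4). The log2 change of Fcgr2b in HOM against WT was -0.09 at 3 months (95% interval -0.24 to 0.05, limma adjusted p = 0.444) and -0.13 at 17 months (-0.39 to 0.14, adjusted p = 0.647). Against HET at 17 months it was -0.21 (-0.48 to 0.05, adjusted p = 0.509), and quality weights moved it to -0.37 with adjusted p = 0.0227. Without HET-7796, whose TPM column summed to the least of all (78.9% of a full TPM total), that change was -0.32 (adjusted p = 0.216).

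Fcer1g encodes the adaptor chain that carries the ITAM shown above, and it also serves receptors other than those for IgG. At 3 months it stood at 2037, 1953, 2101 and 2054 TPM in WT, at 2087, 2015, 2287 and 2359 in HET, and at 2244, 2425, 2117 and 2202 in HOM. All 4 HOM animals lay above all 4 WT animals, and the HET animals bridged both groups. Of all genes without overlap in this comparison, 206 were higher and 1745 lower in HOM. The log2 change of Fcer1g in HOM against WT was 0.14 (SE 0.063, limma unadjusted p = 0.0440, adjusted p = 0.242), which is 10.3% higher. Median centring gave 0.25 and quantile normalization 0.02, and the adjusted p ran from 0.125 to 0.942 over the alternatives.

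In RPKM Fcer1g was 594 to 670 in the 4 WT and 692 to 760 in the 4 HOM animals of 3 months, again without overlap. Within females the HOM animals (2117 and 2202 TPM) lay above the WT animals (1953 to 2101), and within males the HOM animals (2244 and 2425) lay above the WT animal (2054). Neutrophil and monocyte marker sums were also higher in HOM at this age, and the endothelial sum was lower. On the log2 scale 13 of 14 neutrophil and 10 of 11 monocyte markers lay above 0. The part of these cells in the result was not tested. At 17 months Fcer1g stood at 2516, 2550, 2356 and 2384 TPM in WT, at 2572, 2182, 2599 and 2206 in HET, and at 2420, 2287, 2837 and 2788 in HOM. The groups overlapped, and the log2 change in HOM against WT was 0.07 (95% interval -0.14 to 0.28, limma adjusted p = 0.758). The 2 HET libraries with the highest neutrophil sums held 2572 and 2206 TPM of Fcer1g, inside the range of the other HET libraries. The latter, HET-7796, had the lowest TPM column sum of all libraries, and the part of neutrophils was not tested.

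The effect of genotype was also compared between the ages, as the difference of the within-age changes over all 24 libraries. None of the 5 genes passed, beside 0.254% of 11436 genes called for HOM against WT and 0.691% for HET against WT, and 0 of 5 had an unadjusted p under 0.05, beside 21.8% and 14.4% of all genes. The value nearest the limit for HOM against WT was that of Fcgr3, whose change was log2 -0.20 lower at 17 months than at 3 months (95% interval -0.48 to 0.09, limma adjusted p = 0.420). Quantile normalization made it -0.04 and median centring -0.38 (adjusted p = 0.0375). The median gene stood at 0.16 in this comparison. For HET against WT the values were 0.19 for Fcgr2b (adjusted p = 0.558), which quality weights took to 0.37 (adjusted p = 0.0127), and -0.14 for Fcer1g (adjusted p = 0.579). HET animals were all male at 3 months and all female at 17 months, so age and sex cannot be told apart within HET.

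The balance among the genes is described by ratios within each animal, for which no test was run. Of single genes, 16.8% at 3 months and 13.5% at 17 months did not overlap between HOM and WT in TPM. No such share was computed for ratios, and not all ratios computed are given. The Fcgr3 share and the Fcgr2b ratio use the same 4 genes and are not independent. The ratios to Fcer1g share that denominator and are not independent of each other either. Fcgr3 made up most of the summed TPM of the 4 receptors: 63.4% to 64.9% in WT, 63.7% to 65.9% in HET and 60.6% to 64.4% in HOM at 3 months. At 17 months its share was 64.7% to 67.4% in WT, 61.9% to 66.1% in HET and 61.5% to 64.0% in HOM, so that the HOM and WT animals did not overlap. In RPKM the 17-month shares were 68.9% to 71.6% in WT and 65.7% to 68.8% in HOM, also without overlap.

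The ratio of the inhibitory Fcgr2b to the sum of the activating Fcgr1, Fcgr3 and Fcgr4 was 0.235 ± 0.0103 in WT (SD, n = 4), 0.252 ± 0.0264 in HET and 0.261 ± 0.00984 in HOM at 17 months. The 4 HOM animals (0.251 to 0.270) lay above the 4 WT animals (0.225 to 0.246), and in RPKM the ranges were 0.198 to 0.211 and 0.175 to 0.192. At 3 months the ratio overlapped, at 0.260 to 0.272 in WT and 0.246 to 0.312 in HOM. The higher ratio at 17 months stood beside a lower mean of Fcgr3 and no higher mean of Fcgr2b, which was 394 TPM in HOM and 432 in WT.

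Fcgr3 relative to its adaptor Fcer1g was 0.709 to 0.814 in WT and 0.522 to 0.688 in HOM at 3 months, without overlap, and 0.592 to 0.813 in HET. In RPKM the 3-month ratio was 1.13 to 1.29 in WT and 0.831 to 1.08 in HOM, again without overlap. At 17 months it was 0.516 to 0.684 in WT, 0.560 to 0.775 in HET and 0.394 to 0.559 in HOM, and the HOM and WT ranges overlapped. The mean ratio was 16% lower in HOM than in WT at 3 months. At 17 months it was 22.9% lower than in WT, and 24.6% lower than in HET, from which HOM did not overlap in TPM but did in RPKM. The lower value at 3 months was not particular to Fcgr3. Fcgr2b over Fcer1g was 14.9% lower in HOM than in WT in TPM and 15.3% lower in RPKM, both without overlap. Fcgr1 and Fcgr4 over Fcer1g were 11.1% and 8.45% lower in TPM, with overlap.

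**Figure D4:**
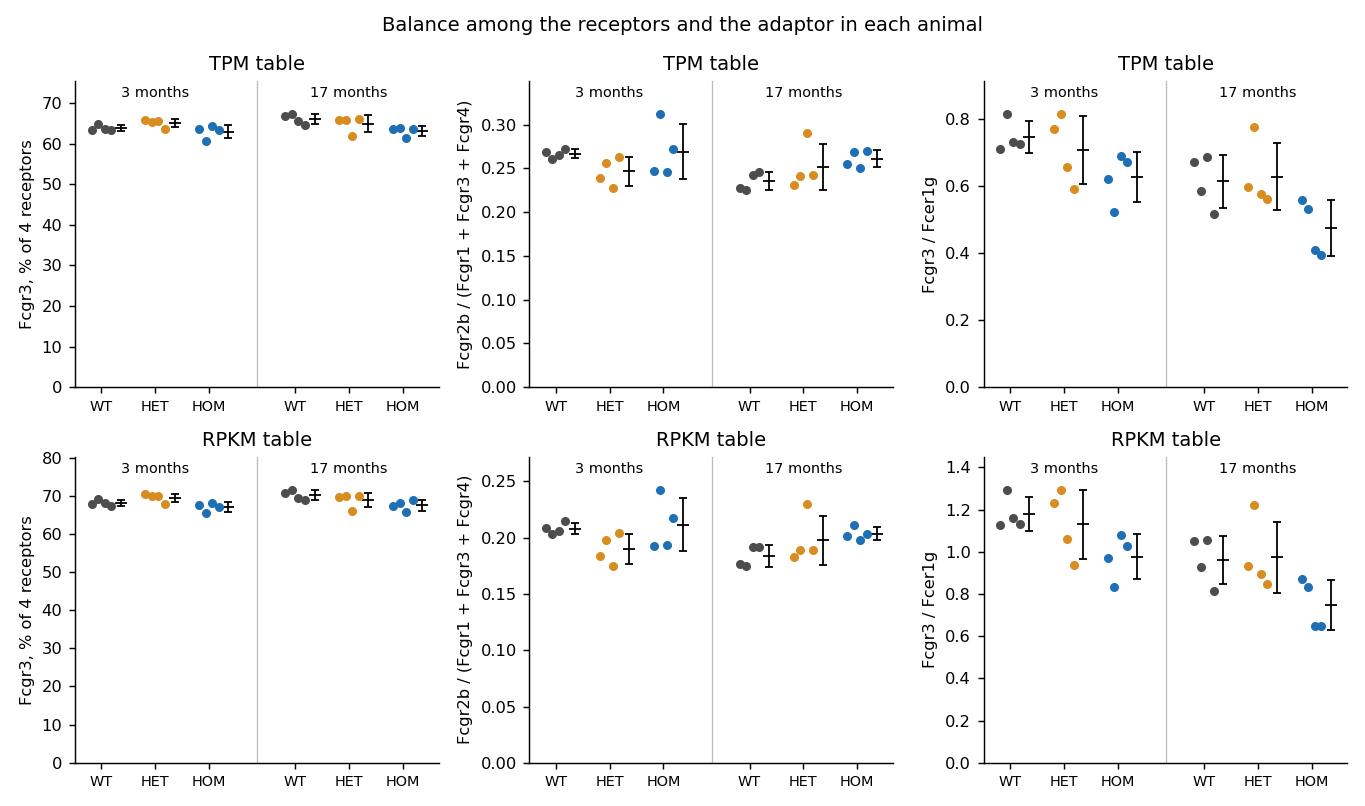
Share of Fcgr3 in the 4 receptors (left), ratio of Fcgr2b to the summed activating receptors (middle) and ratio of Fcgr3 to Fcer1g (right), from the TPM tables (upper row) and the RPKM tables (lower row); points are animals, black bars the mean ± SD of 4. The middle panels show the HOM points of 17 months above the WT points, at 0.251 to 0.270 against 0.225 to 0.246 in TPM.

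Across the animals of an age the members did not vary as a single unit. Correlations are given as a description over 12 animals of 3 genotypes on the log2 scale, and the animals of a table share a scaling by library total. Fcgr1 and Fcgr2b had r = -0.11 at 3 months and r = 0.89 at 17 months, and the RPKM tables gave -0.33 and 0.80. Fcgr1 and Fcgr3 had r = 0.64 and 0.89, and Fcgr2b and Fcgr3 0.27 and 0.83. At 17 months the 3 receptors were thus high and low in the same animals, with WT-7943, HET-7796 and HOM-7901 lowest of their groups for all 3. WT-7943 and HET-7796 had the lowest TPM column sum of their groups, 83.5% and 78.9% of a full TPM total. HOM-7901 did not, at 84.5% beside 80.4% in HOM-7893. The part of the column sum was not tested. Fcgr4 and the other 3 receptors had r from -0.20 to 0.16 in TPM and from -0.25 to 0.43 in RPKM over both ages. Fcgr3 and Fcer1g had r = -0.79 at 3 months in TPM, where the RPKM table gave -0.02, so this relation rests on the table.

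**Figure D5:**
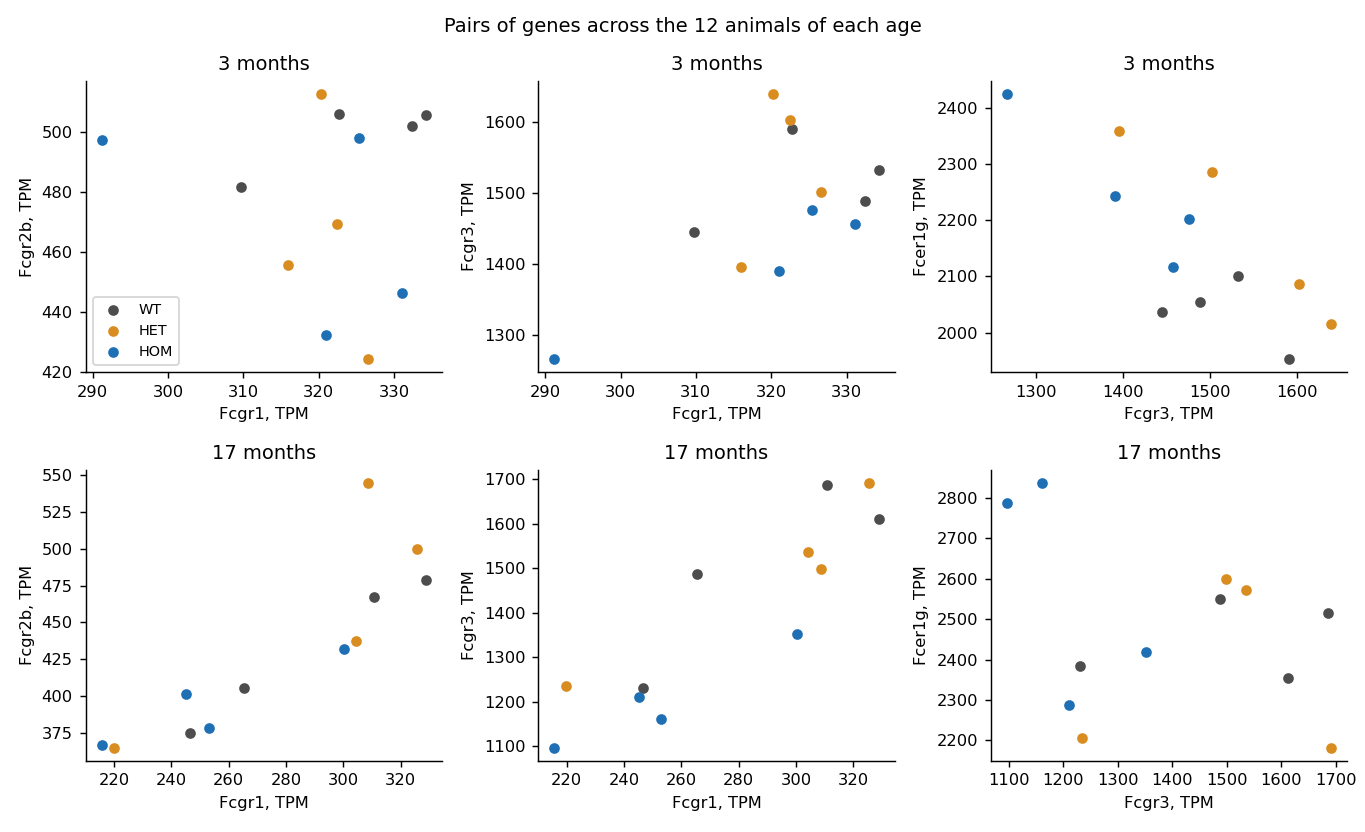
Fcgr2b against Fcgr1 (left), Fcgr3 against Fcgr1 (middle) and Fcer1g against Fcgr3 (right), in TPM, for the 12 animals of 3 months (upper row) and of 17 months (lower row), coloured by genotype; axes do not start at 0. The left panels have r = -0.11 at 3 months and 0.89 at 17 months, and the right panels -0.79 and -0.30.

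The genes most like each member were taken as those with the highest mean over both ages of Pearson's r across the 12 animals, among 8712 genes of at least 5 TPM. For Fcgr3 they were Calr (mean r 0.94), Trf (0.90) and St13 (0.90), where Calr encodes the endoplasmic reticulum chaperone calreticulin and Trf transferrin. For Fcgr2b they were Slc9a9 (0.93), which encodes an endosomal sodium-proton exchanger, Nrp1 (0.92), which encodes neuropilin-1, and Trappc13 (0.90). Fcgr1 was most like Ppp1ca, Lgals9 and Uxs1, each with mean r 0.87, and Lgals9 encodes galectin-9. Fcgr4 was most like Iqgap1 (0.82), Smpdl3a (0.75) and Lst1 (0.75), of which Iqgap1 encodes an actin scaffold. Fcer1g was most like Rpl13 (0.84), Rpl36a (0.80) and Wdr83os (0.80), and the former 2 encode ribosomal proteins.

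The genes that act with the receptors were described by 5 lists. In 5 of the 6 comparisons 0 genes of these lists were called. The exception was Siglecf, called lower in HOM than in WT at 17 months and named for that call, where 0.712% of all genes were called. It stood at 30.6, 26.2, 27.2 and 23.1 TPM in WT and at 18.8, 14.2, 17.0 and 14.5 in HOM. Siglecf encodes an inhibitory lectin with an ITIM that binds sialic acid. The 4 HOM animals lay below all WT animals, beside 13.5% of all genes without overlap in either direction. The log2 change of Siglecf was -0.70 (SE 0.13, limma adjusted p = 0.0440), beside -0.20 in HET (adjusted p = 0.790). The call held in 4 of 12 fits with 1 animal left out and was lost without any one of the WT animals, HET-7791, HOM-7893, HOM-7899 or HOM-7901 (log2 -0.77 to -0.63, limma adjusted p from 0.0261 to 0.150 over the 12). It held in 9 of 12 other alternatives, with adjusted p from 0.00304 to 0.0799 (sex term). At 3 months Siglecf was also below WT without overlap in HET (log2 -0.37, limma adjusted p = 0.0572) and in HOM (-0.35, adjusted p = 0.0838), but neither was called. Of all genes 11.3% (HET) and 16.8% (HOM) did not overlap with WT at 3 months. Of these, 1157 were lower and 151 higher in HET, and 1745 lower and 206 higher in HOM.

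Of the ITAM signalling genes, 27 of 28 were tested and 0 were called in any comparison. In HOM against WT at 3 months 23 of the 27 had a value below 0, with a median of log2 -0.11 beside -0.10 over all genes, and 10 had an unadjusted p under 0.05, beside 19.7% of all genes, of which 1984 were lower and 298 higher. Syk, the kinase that binds the phosphorylated ITAM, stood at 126 ± 6.97 TPM in WT and 106 ± 7.72 in HOM at 3 months (SD, n = 4), a log2 change of -0.26 (limma unadjusted p = 0.00955, adjusted p = 0.157). At 17 months Syk was 67.8 ± 13.3 TPM in WT and 75.3 ± 6.42 in HOM. Lyn, a Src-family kinase that phosphorylates ITAMs and ITIMs, was 386 ± 13.6 TPM in WT and 364 ± 52.3 in HOM at 3 months, and 279 ± 38.8 TPM in WT and 235 ± 18.7 in HOM at 17 months. Tyrobp, the DAP12 adaptor that carries an ITAM of its own, was 6591 ± 475 TPM in WT and 5791 ± 439 in HOM at 17 months (log2 -0.19, limma unadjusted p = 0.0494, adjusted p = 0.267), and 4752 ± 282 and 4799 ± 332 at 3 months.

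All 23 genes of the inhibitory list were tested, and Siglecf was the single one called, in a comparison where 0.712% of all genes were called. Inpp5d, the phosphatase that Fcgr2b recruits, was 521 ± 29.8 TPM in WT and 480 ± 28.1 in HOM at 3 months (limma adjusted p = 0.399), and 301 ± 41.9 and 304 ± 27.7 at 17 months (adjusted p = 0.971). Ptpn6, which encodes SHP-1, was 415 ± 39.3 and 419 ± 16.1 TPM at 3 months and 349 ± 47.5 and 318 ± 35.3 at 17 months.

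Of 12 other Fc receptor genes 4 passed the filter on low values and 0 were called. Fcgrt, the neonatal Fc receptor that recycles IgG, was 180 ± 5.99 TPM in WT and 169 ± 4.84 in HOM at 3 months and 145 ± 20.2 and 153 ± 5.62 at 17 months (limma adjusted p = 0.514 and 0.798). Of 8 other receptors that use Fcer1g 5 passed the filter, and all 5 had a value above 0 in HOM and in HET against WT at both ages, with 0 called. Their median log2 value in HOM against WT was 0.31 at 3 months and 0.73 at 17 months, beside -0.10 and 0.05 over all genes. These genes are also expressed by neutrophils and monocytes, whose marker sums were higher in HOM, and the part of those cells was not tested. All 26 phagocytic cup and oxidase genes were tested, with 0 called and medians of -0.03 and -0.04 in HOM against WT at 3 and 17 months.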

How the data were processed

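RNA of 24 libraries of CD11b-enriched microglia was sequenced. The authors deposited TPM values per gene, and per the file headers also RPKM values, each in 1 table per age. The submitters' processing notes name TopHat2 2.1.1, Partek 7.17.0918, Salmon 0.8.2, DESeq2 and the mm10 build without tying a tool to a table, and the annotation is not given in the sources used here. TPM headers give animal numbers alone, and genotypes were taken from the RPKM headers, matched by animal number. The 17-month RPKM headers write "hemi" for 1 group, taken as heterozygous because a side note in the deposited file gives a Het mean equal to that of those columns. The deposited columns summed to 78.9% to 90.7% of a full TPM total. No counts were used, so depth was read from a row of alignment numbers in the deposited tables.

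Values were fitted as log2(TPM + 1) with limma 3.58.1 in R 4.3.3 (empirical Bayes with a mean-variance trend) over genes whose mean reached 1 TPM: 11587 at 3 months, 11792 at 17 months and 11436 for the difference between ages. All 5 genes passed this filter at both ages. Each age had 1 mean per genotype over its 12 animals, and p-values were adjusted by Benjamini-Hochberg, with a call at an adjusted p under 0.05. The procedure was tested on simulated data with independent noise in each gene and changes larger than those of the 5 genes. That test does not cover shifts shared by a whole library or changes as small as theirs. Intervals are 95% confidence intervals of limma. No deposited p-values were used.

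The members and the 13 gene lists (5 of pathway genes, 8 of cell type markers) were chosen with earlier results of these data known. The named genes are the members, Tyrobp, Syk, Lyn, Inpp5d, Ptpn6 and Fcgrt, each pathway gene called, and the 3 genes most like each member. Gpr34, Clec4n, Clec4e and Pirb were named after their values were seen. Alternatives were other pseudocounts (0.1 and 5), no filter or a mean of 5 TPM or more, median centring, quantile normalization, a sex term, library weights, the RPKM table, only the 2 genotypes compared, and leaving out each animal. Rescaling the columns to a common total and fitting each sex alone were added after seeing the data, as were the alternatives for Siglecf. Sequences and positions come from GENCODE vM21 on GRCm38, read with Biopython 1.88 in Python 3.11.15, 1 transcript per gene; no protein sequences were used here.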

Additional observations from a re-analysis of the deposited data

Results flagged for a closer look

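Groups of 4 animals were searched for a value standing apart, taken as a gap to the nearest other animal divided by the group's range, past Dixon's 95% critical value. Of 144 groups 9 had such a value, and chance puts about 5% of groups past the limit. At 3 months Fcgr2b was 481.7 TPM in WT-8322, below 502.1 to 505.9 in the other WT animals, and the Fcgr3 share of the 4 receptors was 64.88% in WT-8323, above 63.41% to 63.59%. At 17 months Fcgr4 was 96.11 TPM in HOM-7899, above 35.65 to 45.42 in the other HOM animals. The same animal had the highest summed monocyte markers, 1223 TPM against 320.6 to 425.4, and the lowest Fcgr3 share of its group, 61.48% against 63.57% to 63.99%. HET-7795 had an Fcgr3 share of 61.91% in TPM, below 65.84% to 66.12%, and of 65.98% in RPKM, below 69.65% to 70.02%. Its ratio of Fcgr2b to the activating receptors was 0.23 in RPKM, above 0.1827 to 0.1894 in the other HET animals. The summed RPKM of the 4 receptors was 1189 in HOM-7835, above 1085 to 1099 in the other HOM animals of 17 months.

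HOM and WT were also compared within each sex at both ages for every member. No chance share was computed for this search, in which some groups held 1 animal. Fcgr4 is given because it alone had HOM and WT values apart in opposite directions by sex. The HOM minus WT difference of means was -7.67 TPM in females and 14.1 in males at 3 months, and -6.69 in females and 23.3 in males at 17 months, where it was 4.29 without HOM-7899. Every HOM female lay below every WT female and every HOM male above the WT male at both ages, but each age had 1 WT male, and the difference between the sexes was not tested.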

How the results depend on the processing

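No paired analysis was possible because the columns of the tables carry animal numbers with no link to the labels' replicate numbers. Of 217 alternative counts of members called, 7 were not 0. Library weights gave 1 for HOM against HET at 3 months (Fcgr3), 1 for HOM against WT (Fcgr3) and 2 for HOM against HET (Fcgr2b and Fcgr3) at 17 months, and 1 for the difference of HET against WT between ages (Fcgr2b). Median centring gave 1 (Fcgr3) for HOM against WT and for HOM against HET at 17 months and for the difference of HOM against WT between ages. With single animals left out the counts stayed at 0, while the number of all genes called for HOM against WT at 17 months ran from 1 to 368. The 40 member values changed sign in 38 of 485 alternatives with all animals or 1 sex and in 45 of 600 with 1 animal left out, and the cause was not tested.

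The log2 values that changed sign follow. Median centring: HOM against WT at 3 months Fcgr1 0.077 and Fcgr2b 0.019, HET against WT at 3 months Fcgr1 0.096 and Fcgr2b 0.0074, HOM against WT at 17 months Fcer1g -0.0023, and between ages Fcgr4 -0.086 (HOM) and Fcgr1 -0.082 (HET). Quantile normalization: HET against WT at 3 months Fcgr1 0.0088 and Fcgr3 -0.031, HOM against HET at 3 months Fcgr2b -0.022 and Fcer1g -0.051, and between ages Fcgr4 -0.050 and Fcer1g 0.10 (HOM) and Fcgr3 0.0098 (HET). Library weights: HOM against WT at 3 months Fcgr1 0.0031 and Fcgr4 -0.12, HOM against HET at 3 months Fcgr1 0.012 and Fcgr2b -0.040, HET against WT at 17 months Fcgr3 0.026 and Fcer1g 0.026, and between ages Fcgr2b 0.041 (HOM). RPKM: Fcgr1 0.025 (HOM) and 0.052 (HET) against WT at 3 months, and -0.020 between ages (HET). Rescaled RPKM: Fcgr1 0.028 (HET against WT) and Fcgr2b -0.0036 (HOM against HET) at 3 months, and Fcgr1 -0.0081 between ages (HET). Rescaled TPM: Fcgr1 0.0064 (HET against WT) and Fcgr2b -0.011 (HOM against HET) at 3 months, and Fcgr3 0.0029 (HET against WT) at 17 months. Sex term: Fcgr1 0.014 at 3 months and Fcgr3 0.028 at 17 months (HET against WT), and Fcgr4 0.046 (HOM against HET) at 17 months. Females alone: Fcgr1 0.027 and Fcgr4 -0.33 (HOM against WT) at 3 months, and Fcgr3 0.024 (HET against WT) at 17 months. Males alone: Fcgr2b -0.0019 and Fcgr4 0.19 (HOM against HET) at 3 months.

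With 1 animal left out, HOM against WT at 3 months ran from -0.058 to 0.0051 for Fcgr1 and from -0.12 to 0.094 for Fcgr4, HET against WT from -0.015 to 0.062 for Fcgr3 and from -0.10 to 0.19 for Fcgr4, and HOM against HET from -0.042 to 0.020 for Fcgr1, -0.033 to 0.057 for Fcgr2b and -0.17 to 0.058 for Fcgr4. At 17 months HOM against WT ran from -0.19 to 0.28 for Fcgr4, HET against WT from -0.069 to 0.13 for Fcgr1, -0.11 to 0.075 for Fcgr3 and -0.083 to 0.0013 for Fcer1g, and HOM against HET from -0.39 to 0.083 for Fcgr4. The differences between ages ran from -0.10 to 0.020 for Fcgr2b and -0.21 to 0.26 for Fcgr4 (HOM), and from -0.054 to 0.14 for Fcgr1 and -0.12 to 0.057 for Fcgr3 (HET). Fcgr3 in HOM against WT at 17 months stayed negative, from -0.41 without WT-7943 to -0.26 without WT-7782. Of the values that changed sign, only that of Fcgr4 with females alone had a limma unadjusted p under 0.05. With 4 animals a group, the 95% intervals above set the size of change that could be seen, and those of Fcgr4 were the widest.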

Other observations

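Receptors other than those for IgG that use the Fcer1g adaptor were low in these libraries. Clec4n, which encodes Dectin-2, was 13.9 ± 2.1 TPM in WT and 18.5 ± 3.89 in HOM at 3 months (SD, n = 4), and 12.4 ± 6.01 and 18.8 ± 4.35 at 17 months. Clec4e, which encodes Mincle, was 2.01 ± 0.734 TPM in WT, 4.35 ± 3.30 in HET and 7.24 ± 6.81 in HOM at 17 months, with the highest HOM animal at 17.4 TPM. None of these differences was called.

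Pirb, which encodes an inhibitory receptor with ITIMs, was 40.6 ± 9.19 TPM in WT, 55.5 ± 9.76 in HET and 59.3 ± 13.4 in HOM at 17 months, and 41.6 ± 6.14, 36.8 ± 5.53 and 37.9 ± 4.75 at 3 months. The ratio of Fcer1g to Tyrobp, the other ITAM adaptor, was 0.373 ± 0.0158 in WT, 0.364 ± 0.0189 in HET and 0.447 ± 0.0491 in HOM at 17 months, where HOM (0.384 to 0.492) and HET (0.344 to 0.383) did not overlap. In RPKM the ratio was 0.426 to 0.545 in HOM and 0.381 to 0.425 in HET. Of single genes, 7.85% did not overlap between HOM and HET in TPM at 17 months.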
